A study of Homo sapiens with 6 samples.

Results

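Messenger RNA was compared between WM-266.4 cells that had received siRNA against PIR and cells of the same line that had received the transfection reagent without any oligonucleotide. This comparison used 4 of the 6 arrays of the series and 2 of its 3 RNA pools. It was chosen by the labels: the arrays labelled siPIR were set against those labelled NO. The arrays of the third pool, siCTR, were read mainly to place each differing gene. Their values also entered the signal percentile, the comparisons of siCTR with NO given as background, and the siCTR medians of gene lists. A gene was placed as stepwise when its level in siCTR lay between NO and siPIR, and as specific to siPIR when its level in siCTR stayed near NO.

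WM-266.4 is a line derived from a metastatic human melanoma. All 3 groups were grown in medium with 10% serum, seeded 24 h before transfection, treated with Oligofectamine, a cationic lipid, in medium without serum, and collected 72 h later. The siPIR cells received 200 pmol of a commercial pool of 4 siRNA duplexes directed at PIR, the siCTR cells a pool of 4 duplexes with no intended target, and the NO cells Oligofectamine alone. For each group RNA of 3 extractions was mixed into 1 pool, which was hybridised to 2 arrays. The 2 arrays were averaged and each group counts as n = 1. There is therefore no test of the conditions, no p-value is given, and the only error that can be shown is that of repeat hybridisation. All cells are of 1 line, and both siRNA pools were used as mixtures, so no duplex can be seen by itself.

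The product of PIR is pirin, a nuclear cupin-fold protein that binds iron and is known as a partner of nuclear factor I transcription factors and of BCL3, a co-regulator of NF-kB. Pirin has been studied in melanoma as a protein tied to cell migration and to escape from senescence. An siRNA pool can act through its target, through partial matches of its duplexes to other messengers, through the presence of double-stranded RNA in the cell, and through the lipid used for delivery. Cells given only the reagent share the lipid with siPIR and lack everything else, whereas cells given non-targeting duplexes also share the presence of small RNA. A siPIR against NO difference thus sums the last steps of this ladder, and the siCTR level shows how much of it was present with another oligonucleotide pool.

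Signals were the deposited array intensities on a linear scale, with a mean of 500 on every array after the lowest and highest 2% of probe sets were left out. Differences are given as log2 of (signal + 5.4), so that 1 is a 2-fold difference and dim genes are understated, and ranges in parentheses give the lowest and highest value among the 4 combinations of a siPIR and a NO array. A gene was kept when its mean signal in the siPIR or the NO pool was above 458.4, the 75th percentile of all values, which held for 8217 of 19775 genes. It was called when the pools differed at least 2-fold and the arrays of the pools did not overlap. Signals of different genes come from different probes and are not compared with each other.

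The target itself was the gene with the largest difference. PIR had signals of 392.3 and 381.5 in siPIR, of 13544 and 13180 in siCTR, and of 13990 and 14153 in NO. The siPIR arrays lay far below all others and siCTR was close to NO, with log2 differences of -5.17 (-5.19 to -5.14) for siPIR and -0.07 for siCTR. PIR rests on 1 probe set, and the direction of its difference is that of the labels.

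The repeat arrays set the scale of hybridisation error. Between the 2 arrays of a pool 4 to 6 genes were 2-fold apart, against 539 to 636 between a siPIR and a NO array and 9 to 23 between a siCTR and a NO array. Integrity of the RNA was read from the 3'/5' signal ratio of housekeeping genes. For ACTB it was 1.13 on both siPIR arrays and 1.23 to 1.27 on the other arrays, and that of GAPDH was 0.904 to 0.908 on siPIR and 0.919 to 0.972 elsewhere; their part in the differences was not tested. All 7 melanocyte markers with a probe set were above the filter in siPIR or NO and none was called. None of 6 leukocyte and none of 8 endothelial markers was above it. Of the fibroblast markers 2 of 8 were above it, FAP (0.99) and POSTN (0.42), and of the keratinocyte markers 1 of 7, KRT10 (-0.32), none of them called. In a bulk RNA sample, fewer cells of a kind and less RNA per cell cannot be told apart, and scaling each array to the same mean hides a change in total RNA.

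Promoter stretches of 6 genes are shown before the values, because nearly all G2/M genes measured were lower and their promoters are known to carry shared elements, and because some of the most elevated genes are known to respond to low oxygen. They come from the RefSeq promoter table of build GRCh38.p14, each is the 150 bases before the listed gene start, 5′ to 3′ on the gene's strand, and capitals mark every match to any of the 4 searched motifs in this stretch. DEPDC1 (chr1:68497083-68497232, minus strand) and KIF11 (chr10:92592980-92593129, plus strand), 2 mitosis genes that were lower, hold CCAAT and, 25 bases on, the cell cycle homology region (CHR), each on one strand or the other, and both also hold the core of the hypoxia response element (HIF) farther from the start:
DEPDC1: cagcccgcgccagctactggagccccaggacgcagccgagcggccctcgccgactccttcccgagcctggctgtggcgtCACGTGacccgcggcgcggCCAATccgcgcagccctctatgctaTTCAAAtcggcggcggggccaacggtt
KIF11: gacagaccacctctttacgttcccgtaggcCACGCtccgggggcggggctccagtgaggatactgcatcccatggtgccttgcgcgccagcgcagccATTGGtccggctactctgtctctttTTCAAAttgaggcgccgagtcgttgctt
CDT1 (chr16:88803639-88803788, plus strand) and RFC3 (chr13:33817999-33818148, plus strand), 2 DNA replication genes that were lower, hold a match to the E2F motif:
CDT1: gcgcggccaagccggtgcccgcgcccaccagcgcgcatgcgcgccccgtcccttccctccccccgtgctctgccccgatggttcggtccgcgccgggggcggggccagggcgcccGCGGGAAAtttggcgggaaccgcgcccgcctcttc
RFC3: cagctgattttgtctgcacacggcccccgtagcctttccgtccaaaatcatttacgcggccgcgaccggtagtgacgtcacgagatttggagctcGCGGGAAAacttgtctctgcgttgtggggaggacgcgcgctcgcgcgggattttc
ENO2 (chr12:6914430-6914579, plus strand) and ITGA5 (chr12:54419267-54419416, minus strand), 2 genes that were higher in a stepwise order, hold a match to the HIF core and to none of the other motifs:
ENO2: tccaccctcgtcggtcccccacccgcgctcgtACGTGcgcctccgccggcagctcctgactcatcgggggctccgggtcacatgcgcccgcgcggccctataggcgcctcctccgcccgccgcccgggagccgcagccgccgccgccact
ITGA5: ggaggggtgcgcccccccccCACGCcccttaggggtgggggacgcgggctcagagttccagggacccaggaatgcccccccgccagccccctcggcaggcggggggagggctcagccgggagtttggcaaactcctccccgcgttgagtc

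Against reagent-only cells, 541 genes were called, 6.58% of those above the filter. In siPIR 183 genes were higher (2.23%) and 358 lower (4.36%). The lower genes included 57 on the lists of DNA replication or mitosis (15.9% of the 358), and the higher ones included genes of glucose uptake, cell adhesion, matrix proteolysis and secreted vascular and inflammatory factors. Of all 8217 genes above the filter, 35 were on the mitosis list and 32 on the replication list. These lists leave out other genes of cell division, such as NUF2, so 15.9% is not the share of all such genes. The median log2 difference was 1.19 among the higher and -1.35 among the lower called genes, and at least 4-fold differences were seen for 5 higher and 34 lower genes. Over all genes above the filter the median was 0.05. Of the called genes, 72 of the 183 higher ones were above the filter only in siPIR and 156 of the 358 lower ones only in NO. Such genes had to differ to be kept, so the counts below describe the genes that passed. Of the called genes with another probe set above the filter, 32 of 61 higher and 83 of 129 lower ones had one that was also at least 2-fold apart the same way, while 3 higher genes (LSAMP, NECTIN2 and NT5E) and 5 lower ones (CYP2U1, ETNK1, SRSF11, TMTC4 and TRMT5) had one on the other side of 0.

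**Figure D1:**
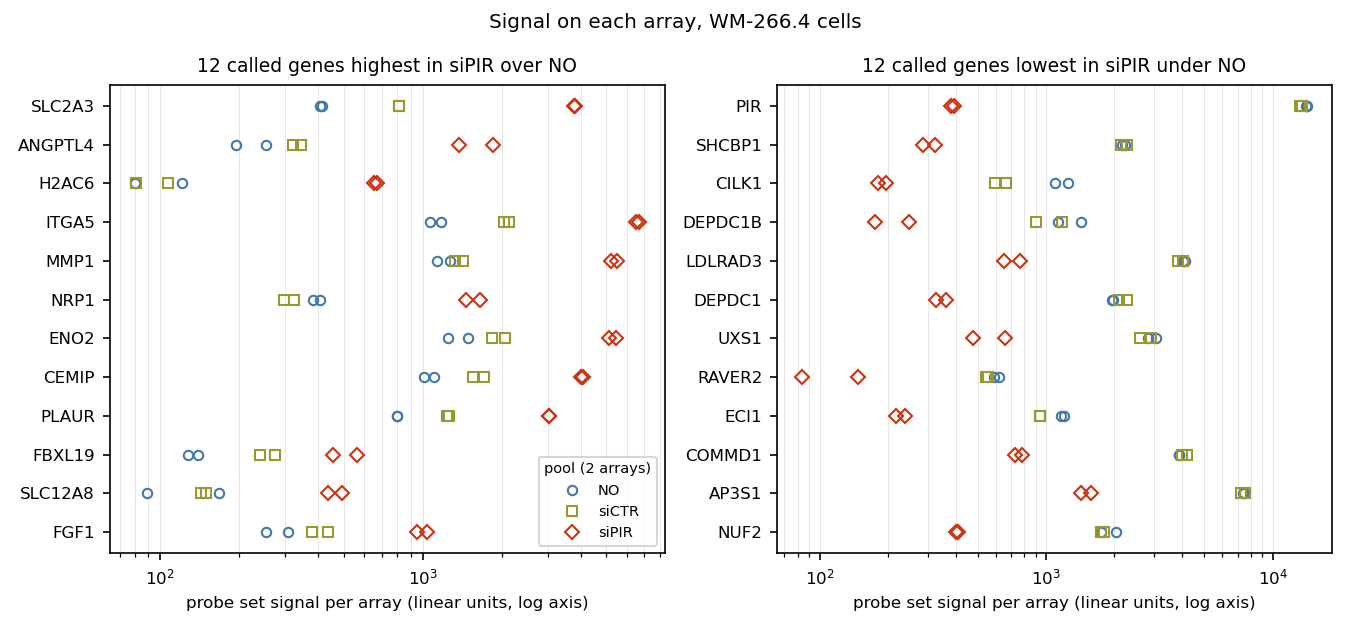
Signal of each array (linear units on a log axis) for the 12 higher (left) and 12 lower (right) called genes with the largest difference between siPIR and NO; each symbol is 1 array and each pool has 2. The siCTR squares lie between NO and siPIR for SLC2A3, ANGPTL4, ITGA5 and CILK1, and overlap or adjoin NO for most genes on the right, including PIR.

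The placement by siCTR differed between the directions. Among the higher genes 135 of 183 (73.8%) were specific to siPIR, with siCTR less than 0.5 log2 units from NO, and 35 (19.1%) were stepwise, with at least 0.5 at each step. A further 12 (6.56%) were already within 0.5 of the siPIR level in siCTR, and 1 lay at least 0.5 on the other side of NO. Among the lower genes 324 of 358 (90.5%) were specific, 23 (6.42%) stepwise, 8 (2.23%) already within 0.5 of the siPIR level, and 3 at least 0.5 on the other side. As background, siCTR was at least 0.5 above NO in 1.63% and at least 0.5 below NO in 1.66% of all genes above the filter. siCTR itself was called against NO, at 2-fold, in 2 higher genes (0.0243%), DECR2 and ST8SIA5, and 4 lower genes (0.0487%), PIK3C2B, CPNE8, COX3 and BLZF1, all 6 named here by this count.

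The siCTR difference and the siPIR difference are both taken from the same NO pool, so hybridisation error in NO moves both the same way. Of the called higher genes siCTR lay between NO and siPIR in 157 of 183 (85.8%), and of the called lower genes in 211 of 358 (58.9%). Over all genes above the filter siCTR was above NO in 56.7%, so a share of this kind must be read against that value for higher genes and against 43.3% for lower genes. With one NO array used for siPIR and the other for siCTR, an alternative chosen after seeing the data, the shares were 79.4% and 80.1% for higher genes and 55.1% and 61.5% for lower ones. The median share of the siPIR difference that was present in siCTR was 18.2% for specific higher, 43.1% for stepwise higher, 1.84% for specific lower and 44.7% for stepwise lower genes. Placement is a cut through a continuous range: with single arrays of each pool, in 8 combinations, 93 of 135 specific higher and 290 of 324 specific lower genes kept their place in all 8, against 8 of 35 stepwise higher and 10 of 23 stepwise lower genes. With a margin of 0.3 in place of 0.5, stepwise genes numbered 87 higher and 68 lower and specific genes 88 and 277. With arrays centred on the median, stepwise genes numbered 25 higher and 29 lower.

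**Figure D2:**
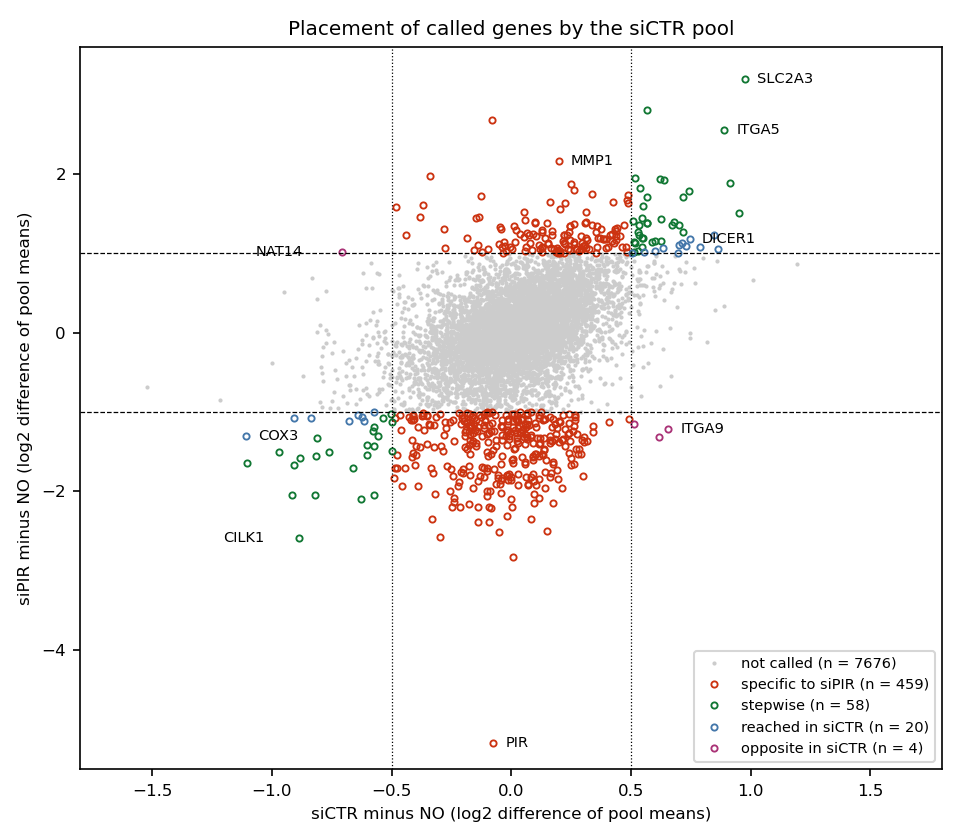
Difference of siCTR from NO (horizontal) against that of siPIR from NO (vertical), in log2 units, for 8217 genes above the filter; both axes share the NO pool, which by itself tilts the cloud upwards. Dashed lines mark the 2-fold rule and dotted lines the 0.5 margin of placement; 459 called genes lie between the dotted lines (specific), 58 are stepwise, 20 are reached in siCTR and 4 opposite.

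Stepwise higher genes included 8 of the 12 with the largest elevation. This count is partly set by the rule. With at least 0.5 needed at each step, the range of siCTR levels that counts as stepwise widens with the size of the difference. As a share of the siPIR difference, the 8 genes had 20.1% (ANGPTL4) to 48.7% (FBXL19) present in siCTR. Specific higher genes had up to 47.5%, so the 2 classes overlapped in this share. SLC2A3, the high-affinity glucose transporter GLUT3, read 3808 and 3786 on siPIR, 810.2 and 813.1 on siCTR and 412.5 and 407.5 on NO, a difference of 3.19 (3.18 to 3.21), of which 0.98 was present in siCTR. The 3 pools did not overlap and the repeat arrays nearly coincided, and its other probe sets gave 2.29 to 2.40. ANGPTL4, a secreted protein that inhibits lipoprotein lipase, read 1848 and 1373 on siPIR, 321.0 and 343.1 on siCTR and 253.5 and 195.0 on NO, a difference of 2.81 (2.41 to 3.21) with 0.57 in siCTR. Its arrays differed more within a pool, and it was stepwise in 4 of the 8 array combinations. The other probe set of ANGPTL4 gave 2.73 with siCTR at -0.31, which is not a stepwise order. ITGA5, the integrin alpha 5 chain of the fibronectin receptor, read 6702 and 6501 on siPIR, 2128 and 2041 on siCTR and 1176 and 1071 on NO, a difference of 2.55 (2.46 to 2.64) with 0.89 in siCTR.

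The next stepwise genes by size are known for varied roles. ENO2, the neuron-type enolase of glycolysis, read 5114 and 5440 on siPIR, 1846 and 2063 on siCTR and 1484 and 1247 on NO (1.95, siCTR 0.52). CEMIP, which takes part in the breakdown of hyaluronan, read 4096 and 4023, 1556 and 1715, and 1108 and 1012 on the same arrays (1.93, siCTR 0.62). PLAUR, the receptor of urokinase, read 3046 and 3043, 1265 and 1236, and 802.1 and 800.3 (1.92, siCTR 0.64). The 3 genes had their siCTR arrays above both NO arrays and below both siPIR arrays, although a probe set of PLAUR other than the brightest gave only 0.43. ENO2 was stepwise in 4 of the 8 array combinations, CEMIP in 6 and PLAUR in all 8. In other probe sets of PLAUR siCTR was at -0.18 to 0.55. FGF1, a fibroblast growth factor, read 1039 and 956.1, 378.4 and 437.1, and 252.6 and 306.2 (1.82, siCTR 0.54). FBXL19, an F-box protein, was dimmer, at 455.7 and 561.0, 273.3 and 240.4, and 138.8 and 128.1 (1.88, siCTR 0.92). In both the order NO, siCTR, siPIR held on every array. A further probe set of FGF1 gave 1.24 with siCTR at -0.01, so it did not show this order.

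Higher genes that were specific to siPIR had siCTR less than 0.5 from NO. H2AC6, a clustered histone H2A gene, read 671.5 and 653.5 on siPIR, 80.8 and 107.4 on siCTR and 121.6 and 80.1 on NO, a difference of 2.68 (2.38 to 2.98) against -0.08 for siCTR. Its siCTR and NO arrays overlapped and were dim, so the size of this difference is understated or uncertain. MMP1, interstitial collagenase, read 5236 and 5509 on siPIR, 1328 and 1428 on siCTR and 1135 and 1267 on NO (2.16, siCTR 0.20). NRP1, the co-receptor of VEGF and class 3 semaphorins, read 1659 and 1469, 323.8 and 297.7, and 406.2 and 381.7 (1.97, siCTR -0.34), with siCTR lowest of all. A further probe set of NRP1 gave 0.93, below the 2-fold rule, and without siPIR replicate 1 it became the brighter one, at 0.97. SLC12A8, a member of the cation-chloride cotransporter family, differed by 1.88 (1.35 to 2.40) with NO arrays at 167.6 and 88.9 on either side of siCTR. SERPIND1, which encodes heparin cofactor II, read 750.0 and 608.3, 226.6 and 234.5, and 182.1 and 200.7 (1.79, siCTR 0.26).

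Genes that were as high in siCTR as in siPIR to within 0.5 form a small group of 12. CYGB, the globin cytoglobin, read 1505 and 1468 on siPIR, 1123 and 1156 on siCTR and 647.0 and 617.2 on NO, differences of 1.23 for siPIR and 0.85 for siCTR, and its other probe set gave 0.36. DICER1, the ribonuclease that cuts precursors into small RNAs, read 5602 and 5621 on siPIR, 4070 and 4228 on siCTR and 2143 and 2847 on NO, differences of 1.18 (0.98 to 1.39) and 0.75. Both siRNA pools lay above both NO arrays for DICER1, and its other probe sets gave 1.15 to 1.22 for siPIR. PXN, the focal adhesion adaptor paxillin, read 1708 and 1591, 1161 and 1427, and 786.5 and 759.8 (1.09, siCTR 0.73). The other probe set of PXN gave 1.12 with siCTR at 0.17, under the margin. KIF13B, a kinesin, and PHLPP2, a phosphatase that acts on AKT, differed by 1.13 and 1.1, with 0.71 and 0.70 in siCTR. NAT14 was the 1 higher gene placed opposite, at 2457 and 3059 on siPIR, 758.6 and 902.4 on siCTR and 1380 and 1327 on NO (1.02, siCTR -0.71).

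**Figure D3:**
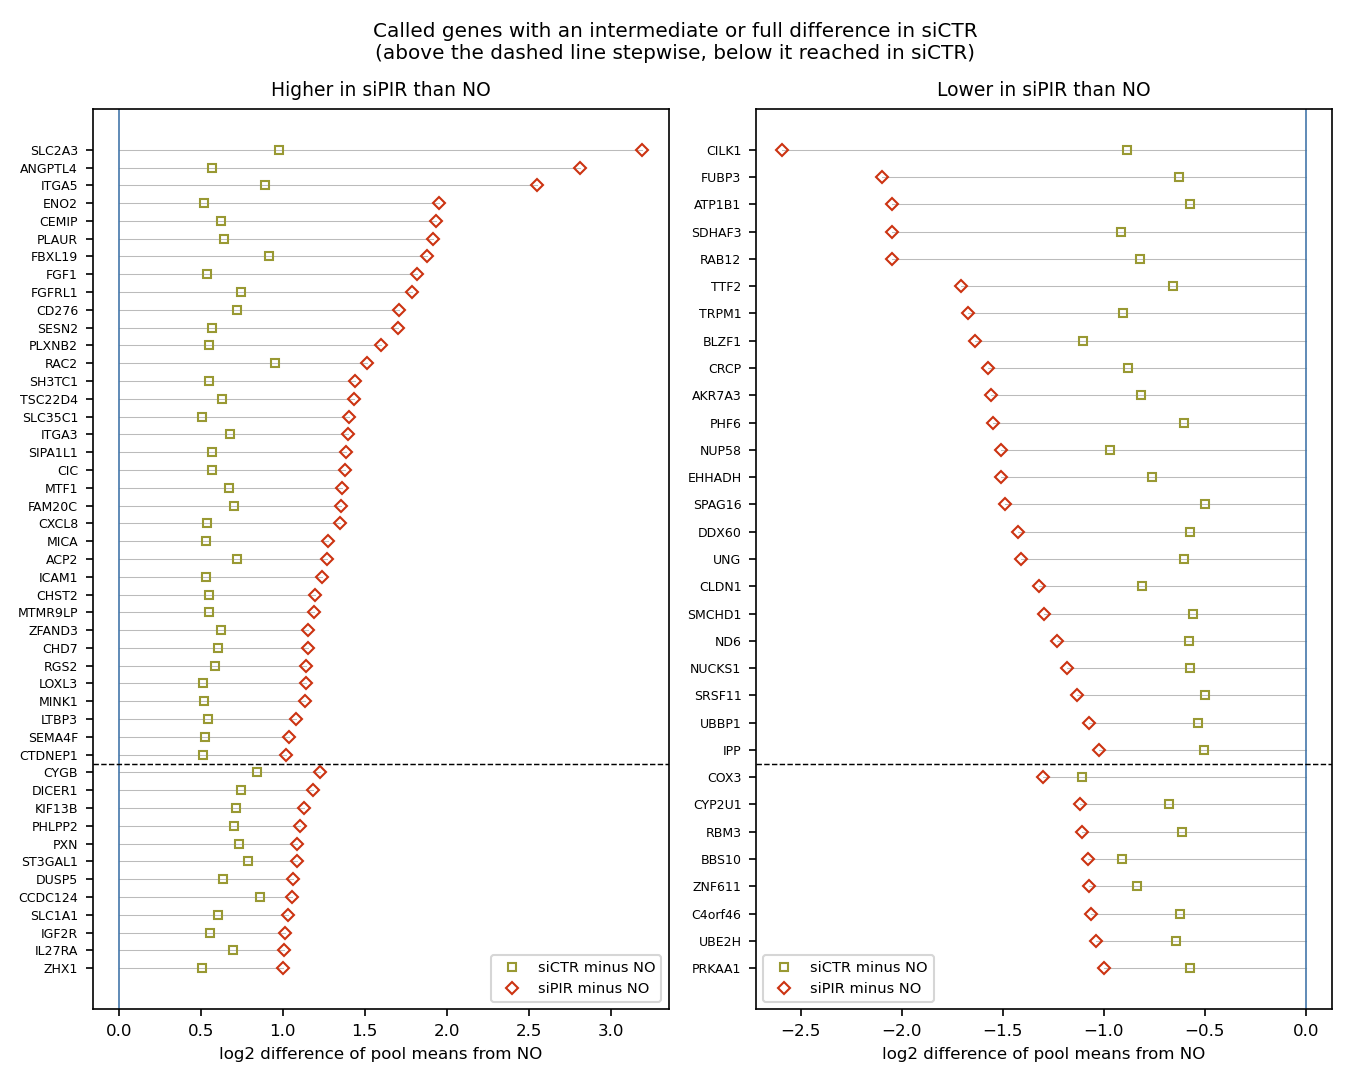
Log2 difference from NO of siCTR (squares) and siPIR (diamonds) for every called gene placed as stepwise (above the dashed line, 35 higher and 23 lower) or reached in siCTR (below it, 12 and 8); the vertical line is NO. SLC2A3, ANGPTL4 and ITGA5 stand out on the left and CILK1 on the right, at -2.59.

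Lower genes specific to siPIR were the largest group. SHCBP1, a spindle midzone and SHC-binding protein, read 286.3 and 324.8 on siPIR, 2139 and 2279 on siCTR and 2174 and 2224 on NO, a difference of -2.83 (-2.93 to -2.72) against 0.01 for siCTR. Paralogues DEPDC1B and DEPDC1 differed by -2.57 (-2.99 to -2.16) and -2.50 (-2.58 to -2.43), with -0.30 and 0.15 in siCTR. DEPDC1 read 361.1 and 326.7 on siPIR, 2267 and 2108 on siCTR and 1964 and 1979 on NO, and its other probe sets gave -2.63 to -1.79. NUF2, a kinetochore protein, read 407.1 and 400.5, 1753 and 1799, and 2036 and 1746 (-2.21, siCTR -0.09). For these genes the siPIR arrays were well apart from the other 4, which overlapped or nearly did.

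The other strongly lower genes are known for roles outside cell division. LDLRAD3, a receptor of the LDL receptor class A domain family, read 769.7 and 651.6 on siPIR, 4017 and 3822 on siCTR and 4087 and 4039 on NO (-2.51, siCTR -0.05). AP3S1, the small sigma subunit of the AP-3 adaptor that sorts cargo to lysosomes and melanosomes, read 1582 and 1424, 7560 and 7220, and 7432 and 7509 (-2.31, siCTR -0.02). COMMD1, which takes part in copper handling and NF-kB turnover, read 728.1 and 779.6, 4177 and 3981, and 3855 and 3855 (-2.35, siCTR 0.08). All 3 had siCTR on the NO level. UXS1, which makes UDP-xylose, differed by -2.38 (-2.68 to -2.09), and a further probe set of it by -1.45. ECI1, a mitochondrial enzyme of unsaturated fatty acid oxidation, differed by -2.35 (-2.44 to -2.26) with -0.33 in siCTR, and RAVER2, an RNA-binding protein, by -2.38 (-2.81 to -1.96) with -0.14.

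Stepwise lower genes were fewer and less firmly placed. CILK1, a kinase of the primary cilium, read 196.1 and 181.7 on siPIR, 593.7 and 665.0 on siCTR and 1091 and 1245 on NO, a difference of -2.59 (-2.74 to -2.44) with -0.89 in siCTR, and was stepwise in all 8 array combinations. SDHAF3, an assembly factor of succinate dehydrogenase, read 322.3 and 422.9, 812.0 and 821.4, and 1676 and 1427 (-2.05, siCTR -0.92). FUBP3, a single-stranded nucleic acid binding protein, and ATP1B1, a beta chain of the sodium-potassium pump, differed by -2.10 and -2.05 with -0.63 and -0.57 in siCTR, but their NO arrays were 2388 and 3347 for FUBP3 and 3778 and 2715 for ATP1B1. Each was stepwise in 4 of the 8 array combinations, and the other probe set of ATP1B1 gave -1.30 with siCTR at 0.32. RAB12, a vesicle transport GTPase, differed by -2.05 on an _x_at probe set, the kind called shared here. Without _x_at and _s_at probe sets its difference was -0.02. A further 8 genes were already low in siCTR, such as COX3, a mitochondrially encoded subunit of cytochrome oxidase, at 2865 and 3632 on siPIR, 3669 and 3698 on siCTR and 7108 and 8901 on NO (-1.30, siCTR -1.11; a shared probe set). Within these 8 were RBM3, a cold-induced RNA-binding protein (-1.11, siCTR -0.61), CYP2U1, a cytochrome P450 whose other probe set gave 0.01 (-1.12, siCTR -0.68), BBS10, a Bardet-Biedl chaperonin (-1.08, siCTR -0.91), and ZNF611, a zinc finger protein (-1.07, siCTR -0.83). ITGA9, the integrin alpha 9 chain, was lower in siPIR and higher in siCTR than in NO, at 838.4 and 785.6, 2970 and 3009, and 1916 and 1875 (-1.22, siCTR 0.66). RAP2C, a RAS-related GTPase, and SUN2, a protein of the inner nuclear membrane, followed the same order (-1.31 and -1.16, siCTR 0.62 and 0.51).

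Called genes were counted over 20 gene lists. The lists were chosen with earlier results of these data known, so the counts describe their members and are no independent support. Of the 36 genes of the G2/M and mitosis list 35 were above the filter and 34 were lower, none higher, against 4.36% lower over all genes above the filter. The list median was -1.63 for siPIR and 0.10 for siCTR, and all 34 were placed as specific to siPIR. Of the 34, 14 were above the filter only in NO, as were 5 of the called replication genes. TTK, the spindle checkpoint kinase, read 210.9 and 193.3 on siPIR, 925.0 and 972.1 on siCTR and 955.5 and 937.6 on NO (-2.20, siCTR 0.00). KIF11, the kinesin that separates spindle poles and whose promoter is printed above, read 469.7 and 412.2, 1886 and 1938, and 2059 and 2020 (-2.20, siCTR -0.09). In both genes siCTR lay close to NO and siPIR far below.

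Of the 37 genes of DNA replication and G1/S 32 were above the filter and 23 were lower, none higher, with a median of -1.27 for siPIR and 0.04 for siCTR, and again all 23 were specific. CDT1, which licenses replication origins, read 258.4 and 284.1 on siPIR, 1108 and 1021 on siCTR and 1175 and 928.4 on NO (-1.93, siCTR 0.03; a shared probe set). RFC3, a subunit of the clamp loader, read 869.0 and 869.7, 3098 and 3245, and 3210 and 3334 (-1.91, siCTR -0.05). GINS1 and GINS2, subunits of the replicative helicase complex, differed by -1.84 and -1.82. E2F1, a transcription factor that drives S phase genes, lay just under the signal filter, with pool means of 209.2 in siPIR and 448.0 in NO, a difference of -1.07.

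The p53 target list had 3 higher members of 21 above the filter and none lower, with a median of 0.40, where 2.23% of all genes above the filter were higher and 4.36% lower. The counts of the lists that follow are to be read beside the same shares. SESN2, a stress-induced sestrin, was stepwise, at 946.6 and 894.4 on siPIR, 428.8 and 402.4 on siCTR and 244.4 and 317.8 on NO (1.7, siCTR 0.57). SESN2 kept this place in 4 of the 8 array combinations, and its other probe set gave 1.38 with siCTR at 0.31, under the margin. It passed the filter only in siPIR. CDKN1A, the p21 inhibitor of cyclin-dependent kinases, was specific, at 9040 and 9077, 4200 and 4228, and 3456 and 3568 (1.37, siCTR 0.26). TP53INP1, a p53-induced regulator of cell death and autophagy, was also specific (1.29, siCTR 0.02). SESN1 was at 0.91 and was not called. Of 6 clustered histone genes above the filter, out of 45 listed, 3 were higher and all 3 specific. H2AC6 and H2BC21 passed the filter only in siPIR, so the count says nothing of the list as a whole. Beside H2AC6 these were H2BC21, at 738.3 and 679.5, 169.8 and 182.9, and 259.9 and 202.0 (1.61, siCTR -0.37), and H2BC12 (1.02, siCTR -0.12). H2BC9 was at -0.73 and was not called.

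Both called genes of the glycolysis list, SLC2A3 and ENO2, were stepwise, and SLC2A3 passed the filter only in siPIR. The other 18 of its 20 members above the filter were not called, with PFKL, a phosphofructokinase, at 0.99 and PFKFB4, which makes its activator, at 0.64. The list median was 0.36 for siPIR and 0.09 for siCTR. Of 19 hypoxia response genes outside glycolysis 1 was higher and 1 lower, with a median of 0.58 against 0.05 over all genes above the filter, and 16 of the 19 had a positive difference. EPAS1, the HIF-2 alpha subunit, read 7543 and 7586 on siPIR, 4174 and 4735 on siCTR and 3611 and 3642 on NO (1.06, siCTR 0.29). BNIP3L, a mitophagy receptor, read 1837 and 1741, 8558 and 7923, and 7785 and 7404 (-2.08, siCTR 0.12), but its other probe set gave -0.44. Without either NO array that other probe set was the brighter one and the difference of BNIP3L was -0.42 or -0.46. VLDLR, a lipoprotein receptor, and P4HA2, a collagen prolyl hydroxylase, had differences of 0.91 and 0.89 and were not called.

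Among 10 secreted vascular factors above the filter 3 were higher (2.23% over all genes), 1 of them stepwise, namely ANGPTL4. ANGPTL4 passed the filter only in siPIR. SEMA3C, a class 3 semaphorin, read 9686 and 10067 on siPIR, 3769 and 3668 on siCTR and 3098 and 3265 on NO (1.63, siCTR 0.22). VEGFA, the vascular endothelial growth factor, read 9796 and 10042, 5585 and 5884, and 4339 and 4375 (1.19, siCTR 0.40), and its other probe sets gave 1.35 to 2.08. Both were placed as specific, although in each gene both siCTR arrays lay above both NO arrays. SEMA3A was just below the rule, at 1.00 (0.75 to 1.24).

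In the adhesion and matrix lists the called genes were few and nearly all higher. Of 19 integrins and adaptors 4 were higher (2.23% over all genes) and 1, ITGA9, lower, and they fell into every class: ITGA5 and ITGA3 stepwise, PXN reached in siCTR, ITGA4 specific (1.01, siCTR 0.22; named after its values were seen) and ITGA9 opposite. ITGA3, the alpha chain of a laminin receptor, read 1338 and 1221 on siPIR, 782.2 and 769.2 on siCTR and 505.5 and 459.6 on NO (1.40, siCTR 0.68). Of 19 matrix proteases and urokinase genes 4 were likewise higher: PLAUR stepwise, and MMP1, MMP14 and ADAMTS1 specific. MMP14, a membrane-bound collagenase, read 7010 and 7524, 3362 and 3556, and 2799 and 2785 (1.38, siCTR 0.31). ADAMTS1, a secreted protease of the aggrecanase family, stood at 1.32 with 0.44 in siCTR.
Of 18 collagens and matrix glycoproteins 2 were higher, both chains of collagen VI. COL6A2 read 2751 and 2844 on siPIR, 1536 and 1488 on siCTR and 1088 and 1093 on NO (1.36, siCTR 0.47), close to the margin of the stepwise class, and COL6A1 stood at 1.12 with 0.26 in siCTR. LAMB1, a laminin chain, and COL1A2, a chain of collagen I, were at -0.94 and 0.91 and were not called. Of 13 TGF-beta and BMP genes TGFBR1, the type I receptor, was lower and TGFB1, the ligand, higher. TGFBR1 read 1189 and 1148, 3991 and 4028, and 3992 and 4132 (-1.79, siCTR -0.02), and TGFB1 stood at 1.03 with 0.28 in siCTR. PMEPA1, a feedback inhibitor of the pathway, and TGFBR2, the type II receptor, were at 0.85 and 0.63.

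Inflammatory genes gave 3 higher (2.23% over all genes) and no lower members of 10 above the filter, with a list median of 0.45. CXCL8, the chemokine interleukin 8, read 2837 and 2854 on siPIR, 1812 and 1438 on siCTR and 1021 and 1211 on NO (1.35, siCTR 0.54; a shared probe set, its other probe set at 1.5). ICAM1, an adhesion molecule for leukocytes, read 7744 and 6844, 4558 and 4381, and 3089 and 3086 (1.24, siCTR 0.53). Both were stepwise with siCTR just past the margin, CXCL8 in 4 of the 8 array combinations. In other probe sets siCTR was at 0.79 for CXCL8 and at 0.24 to 0.48, under the margin, for ICAM1. CSF1, the macrophage colony-stimulating factor, was specific (1.15, siCTR 0.22) and passed the filter only in siPIR, and LIF was at 0.71. In the MAPK list 1 of 22, DUSP5, a phosphatase of ERK, was higher and already high in siCTR (1.06, siCTR 0.63). Between siPIR and NO, DUSP5 passed the filter only in siPIR. FOSL1, an AP-1 subunit, stood at 0.99, CCND1, cyclin D1, at 0.55 and SPRY4, a feedback inhibitor, at 0.53.

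The nucleic acid sensors and interferon-stimulated genes, which can answer to double-stranded RNA, gave no higher gene and 1 lower gene of 21 above the filter. DDX60, an antiviral helicase, read 336.0 and 340.6 on siPIR, 581.2 and 649.7 on siCTR and 976.0 and 860.3 on NO (-1.42, siCTR -0.57), a stepwise order with no overlap of the pools. Between siPIR and NO it passed the filter only in NO. IFIT1 was at 0.89 with -0.26 in siCTR, IRF9 at 0.80 and OAS3 at -0.86, none of them called. The list median was 0.46 for siPIR, with siCTR at the NO level, and 16 of the 21 had a positive siPIR difference. In the RNA interference list DICER1 was the 1 called gene of 22, and the median was 0.02. TNRC6C, a partner of Argonaute proteins, was at 0.76, FMR1, an RNA-binding protein, at -0.62 and AGO1, an Argonaute, at -0.49.

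Of 21 pigmentation and melanocyte lineage genes 1 was higher and 1 lower, near the shares over all genes (2.23% and 4.36%). TRPM1, the channel melastatin, read 813.1 and 942.7 on siPIR, 1506 and 1481 on siCTR and 2704 and 2911 on NO (-1.67, siCTR -0.91), a stepwise order, and its other probe set gave -0.87. CDH19, a cadherin of neural crest derived cells, was higher and specific (1.07, siCTR 0.13). MC1R, the melanocortin receptor, and SOX10, a lineage transcription factor, were at 0.56 and 0.55 and were not called. Of 18 genes of cholesterol synthesis and uptake 5 were lower and none higher, all 5 specific, where 4.36% of all genes were lower; 2 of the 5 were above the filter only in NO. The list median was -0.40 for siPIR and 0.22 for siCTR. SREBF2, the transcription factor of the pathway, averaged 317.1 over the siPIR arrays against 969.5 over siCTR and 817.7 over NO (-1.36, siCTR 0.24), HMGCS1, an early enzyme, was at -1.34 (-0.54 without NO replicate 2), STARD4, a sterol carrier, at -1.09 and FDPS, farnesyl diphosphate synthase, at -1.08. The fifth gene, ACAT2, a thiolase at the start of the pathway, was named after its values were seen (-1.04, siCTR 0.22).

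Genes that respond to unfolded protein or to lack of amino acids were called in both directions, 2 higher and 2 lower of 27 (2.23% and 4.36% over all genes). SLC7A5, a carrier of large neutral amino acids, read 6178 and 5711 on siPIR, 3015 and 2625 on siCTR and 2470 and 2071 on NO (1.39, siCTR 0.31). PPP1R15A, which recruits the phosphatase of eIF2 alpha, was at 1.09, PHGDH, the entry enzyme of serine synthesis, at -1.10 and XBP1, a transcription factor of the response, at -1.0. None of 24 endosome, lysosome and autophagy genes was called in either direction, with a median of 0.27. Of 7 genes listed as pirin partners or their relatives 1 was lower: NFIA, a nuclear factor I protein, read 407.9 and 479.5, 672.8 and 760.1, and 841.5 and 995.1 (-1.04, siCTR -0.35), and its other probe sets gave -1.16 to -0.29. Between siPIR and NO, NFIA passed the filter only in NO. NFIX was at -0.39 with -0.52 in siCTR, SNAI2, a transcription factor of migration, at -0.29 and NFKB1 at -0.24, none called.

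**Figure D4:**
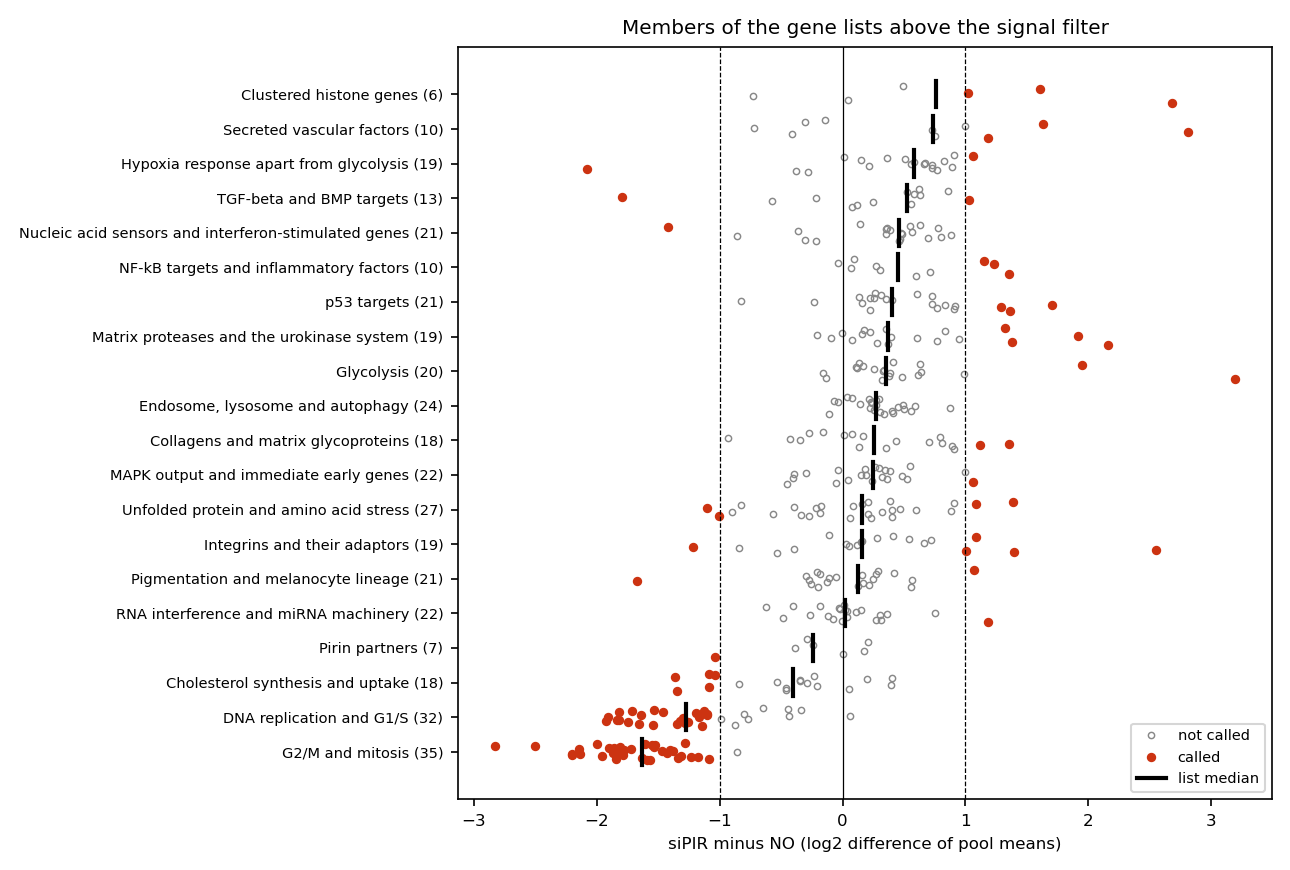
Log2 difference of siPIR from NO for each member above the filter of the 20 gene lists (numbers of members in brackets), ordered by the list median (black bar); filled points were called and dashed lines mark 2-fold. The G2/M and DNA replication lists, with medians of -1.63 and -1.27, lie apart from the others, whose medians are between -0.40 and 0.76.

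Promoter motifs were counted in the 250 bases before the first listed start, on both strands, for the 433 called genes with an entry. The CHR search used the letters TTTGAA and the CCAAT search those of its name. For E2F the sequences TTTGGCGC, TTTCCCGC and TTTCGCGC were each accepted. The HIF search accepted ACGTG as well as the form that starts with GC, GCGTG. A promoter was counted once per motif however many matches it held, and a palindrome of the HIF core matches on both strands. CHR was present in 21.3% of specific lower genes, against 8.59% of genes above the filter and 13.6% of all promoters in the table. Within the called G2/M genes it was present in 50% (14 of 28), and CCAAT in 78.6%, against 36.3% of genes above the filter. CHR and CCAAT occurred in the same promoter in 39.3% of these G2/M genes and in 3.62% of genes above the filter. Since 34 of the 35 listed G2/M genes above the filter were called, these shares describe the list. Such genes are known to carry these elements, so the shares say nothing further of the siPIR difference.
E2F matches were present in 40.0% of the called replication genes (8 of 20), in 7.14% of the called G2/M genes and in 4.19% of genes above the filter. Outside both cell cycle lists the specific lower genes held CHR in 19.1% and CCAAT in 46.5%. This set still holds genes of cell division that are on neither list, such as NUF2. Its shares therefore do not describe genes unrelated to the cell cycle. HIF matches were present in 50% of stepwise higher, 44.4% of specific higher, 65.4% of specific lower and 68.8% of stepwise lower genes, against 59.3% of genes above the filter. The higher genes therefore held no larger share of HIF matches than the background. A match is a description of letters in this window and not of a bound site.

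**Figure D5:**
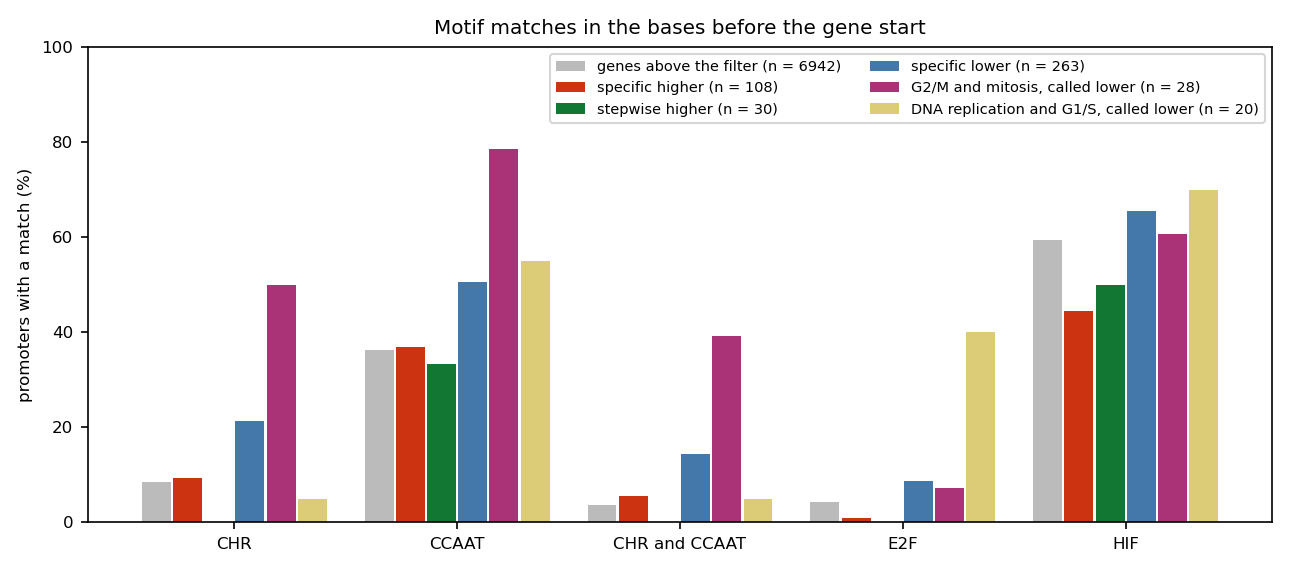
Share of promoters (percent, from 0 to 100) with a match in the 250 bases before the gene start, for 5 motif searches and 6 gene sets; n is the number of genes with a promoter entry and the grey bars are all genes above the filter. CHR, CCAAT and their combination are most frequent in the G2/M genes (50%, 78.6% and 39.3%), E2F in the replication genes (40.0%), and HIF is not raised in the higher genes.

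Genes at the edge of the rules were as follows. The dimmest called genes were PIK3CD (pool mean of 459.9 in siPIR, difference 1.07), PCDHGA3 (459.9 in siPIR, 1.03) and CIP2A (461.4 in NO, -1.55). Just below the filter were HPGD (457.4 in NO, -1.02) and TTC38 (457.4 in siPIR, 1.68). By size, PRKAA1 (-1.0), CKS2 (-1.0) and ZHX1 (1.00) were just inside 2-fold, and C12orf76 (1.00), LYRM7 (-1.0) and CPAP (-1.0) just outside.

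Some calls of genes named above rested on a single array. Without siPIR replicate 1 the differences of BBS10 (-0.70), ZNF611 (-0.76), NFIA (-0.92) and XBP1 (-0.97) were under 2-fold. Without siPIR replicate 2 this held for KIF13B (0.98), NAT14 (0.86), DUSP5 (0.99) and H2BC12 (0.99), while FBXL19 and SLC12A8 fell under the signal filter with differences of 1.73 and 1.79. Without NO replicate 1 it held for DICER1 (0.98), KIF13B (0.97), CYP2U1 (-0.90), CSF1 (0.94) and TGFB1 (0.92). Without NO replicate 2 it held for PHLPP2 (0.98), NAT14 (0.99), BBS10 (-0.97), ZNF611 (-0.78), XBP1 (-0.94) and H2BC12 (0.98). Other probe sets also bear on some calls. As the mean over all probe sets of a gene, NRP1 was at 0.68, CYGB at 0.66, PHLPP2 at 0.53, CYP2U1 at -0.69, RBM3 and ZNF611 at -0.85, COL6A1 at 0.68, TGFB1 at 0.83, ITGA9 was at -0.27, DICER1 at 0.60, TP53INP1 at 0.41, HMGCS1 at -0.93, TGFBR1 at -0.86, NFIA at -0.78 and CDH19 at 0.88. Without _x_at and _s_at probe sets, COL6A2 was at 0.68, RBM3 at -0.60, TGFB1 at 0.63 and PLAUR at 0.43. CEMIP (1.67) and GINS2 (-1.63) also lost their calls there, and the uncalled AGO1 changed sign to 0.17. The uncalled P4HA2 changed sign to -0.04 as the mean over probe sets. From the G2/M and replication lists, SHCBP1, DEPDC1, TTK, KIF11, CDT1, RFC3, GINS1 and GINS2 kept their calls when any 1 array was left out.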

How the data were processed

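Each deposited file column holds 1 array, as probe set intensity without log transformation. Per the submitters' processing notes the authors used GCOS; its version is not given in the sources used here. All 6 columns matched a sample (0 unmatched). The HG-U133 Plus 2 design has 54675 probe sets; a single gene was annotated for 41097, more than 1 for 1801, and 11777 were not in the annotation. Entrez identifiers of 99.9% were found in RefSeq and 0 symbols changed. Each gene took its brightest probe set over the siPIR and NO arrays. Arrays of a pool were averaged as log2(intensity + 5.4), the 10th percentile. Placement used a margin of 0.5. No limma or other test was run, since each group is 1 pool.

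Named genes are PIR, the 12 largest differences in each direction, the 5 largest in each placement class and direction, and up to 4 per list, plus the values at the edges of the rules. The members and lists were chosen with earlier results of these data known. Some listed genes were not analysed here. The counting steps were tested on simulated data. Python 3.11.15, numpy 2.4.6 and pandas 2.3.3 were used. The alternatives tried are the pseudocount, filter, scaling, probe set rule, fold, margin and single arrays. RefSeq held promoters of 27305 genes.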

Additional observations from a re-analysis of the deposited data

How the results depend on the processing

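No paired analysis was possible because the shared replicate numbers mark repeat hybridisations of 1 RNA pool per group. The signal filter, the fold, and the margin or share used for placement moved the counts most, while 4 times the pseudocount or none, the percentile of the 4 arrays, quantile normalisation, centring and no demand on single arrays left every count within 1.5 times. Within that range, centring moved the stepwise genes from 35 higher and 23 lower to 25 higher and 29 lower, so their order by direction depends on scaling. Specific genes then numbered 137 of 172 higher and 330 of 372 lower.

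With the filter at the median of all values, 468 genes were higher and 698 lower, 242 higher genes were specific, and 128 higher and 102 lower genes were stepwise. Without a filter these were 1099 and 1461, with 484 higher and 714 lower specific and 256 and 282 stepwise. At 1.5-fold, 899 were higher and 930 lower, 802 and 862 of them specific. A margin of 0.3 gave 88 specific higher, 87 stepwise higher and 68 stepwise lower genes, and placement by the share of the difference (25% to 75% as stepwise) gave 89, 88 and 60. Stepwise higher genes fell to 19 and stepwise lower to 12 with the mean over probe sets, and stepwise higher to 17 without _x_at and _s_at probe sets, which leaves fewer genes.

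The difference of PIR was -5.11 with 4 times the pseudocount and -5.21 after quantile normalisation; it has no value without _s_at probe sets. Leaving out each array in turn gave 186 to 211 higher and 353 to 396 lower genes, 129 to 150 and 319 to 353 specific, and 30 to 49 and 20 to 31 stepwise. With one NO array for siPIR and the other for siCTR, alternatives chosen after seeing the data, specific genes numbered 154 and 168 higher and 331 and 329 lower, and stepwise genes 30 and 27 higher and 16 and 25 lower. Of the 541 called genes 359 were still called with the mean over probe sets and 345 without _x_at and _s_at probe sets, 19 of the 541 then having the opposite sign. No named difference past the rule changed direction. List medians changed sign for RNA interference (-0.12 with the mean over probe sets) and pigmentation (-0.07, and -0.11 without _x_at and _s_at probe sets). RNA quality of single extractions cannot be seen in pools, and dim genes are limited by signal over background.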

Other observations

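Several gene families, some with members on the lists and all chosen after the values were seen, lay mainly on one side. Of 13 protocadherin beta genes above the filter, cell surface adhesion proteins encoded side by side, 5 were higher (2.23% over all genes) and none lower, 2 of the 5 having passed the filter only in siPIR. Their sequences are alike, so probe sets may share signal between members. Of 16 plexins, semaphorins and neuropilins, guidance receptors and ligands, 6 were higher and none lower, 3 of the 6 having passed the filter only in siPIR; since the families were picked for their values, the counts are no evidence beyond these genes. Besides NRP1 and SEMA3C these were PLXNB2 (1.60, siCTR 0.55), PLXNB3 (1.39), PLXNB1 (1.34) and SEMA4F (1.04, siCTR 0.53), PLXNB2 and SEMA4F in a stepwise order. PLXNB2 kept this place in 4 of the 8 array combinations and SEMA4F in 2. In other probe sets of SEMA4F siCTR was at 0.06 to 0.21, under the margin. Among lower genes, 10 of 16 centromere proteins, 8 of 11 SMC proteins and condensin subunits and 7 of 9 genes named MCM were called lower (4.36% over all genes) and none higher; 7, 4 and 1 of these passed the filter only in NO. Of 24 kinesins 10 were lower, 8 of them above the filter only in NO, and 1, KIF13B, higher. Of 7 mitochondrially encoded genes 2 were lower, COX3 and ND6 (-1.23, siCTR -0.58), although 5 had a positive difference.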
